A study of Rattus norvegicus with 10 samples.

Results

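The interval examined here is chromosome 20 from 1.0 to 5.5 Mb of the rat RN4 assembly, which holds the rat major histocompatibility complex, RT1. Its members were chosen by position alone, as all captured regions that start at or after 1000000 and end at or before 5500000, and no captured region crossed either border. There were 1271 such regions of 716492 in the whole matrix, of which 830 passed the filter on low tag sums and were tested, and 441 did not pass it. The first member started at 1092990 and the last ended at 5499607. The matrix carries no gene names, and gene annotation of RN4 was not used here. The label of the interval was therefore not checked against annotation, and no region is assigned to a gene here. The study's supplement lists an intron region of several genes, C4b and Cyp21a1 among them, as increased in methylation after traumatic brain injury (TBI). That region lies within the member from 4226403 to 4227948. An intron region of Tesb in the interval is listed as decreased.

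Methylated DNA was measured in adult male Sprague-Dawley rats, an outbred strain in which rats differ in inherited sequence, weighing 330 to 371 g at operation. TBI rats (n = 5) received lateral fluid-percussion injury, a pressure pulse to the dura over the left parietal cortex, under anesthesia. Sham rats (n = 5) went through anesthesia and surgery, craniectomy included, without the pulse. Both groups were picked from rats that survived the follow-up. The left hippocampal tissue with CA3 and dentate gyrus was taken 3 months later from each rat separately, so that all cell types of the tissue are mixed in each library. Per the study's methods, TBI rats were not monitored by EEG. DNA fragments bound by a methyl-binding protein were read as 36 bp single tags, so that more tags in a region stand for more captured methylated DNA.

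The major histocompatibility complex encodes the proteins that present peptides to T cells. Class I molecules are made by most cells and present peptides from inside the cell, class II molecules are made mainly by professional antigen-presenting cells and, in the brain, by activated microglia, and the class III part holds complement components, cytokines and other genes that do not present antigen. The complex is among the most variable parts of vertebrate genomes, and haplotypes of the rat differ in the number and sequence of their class I genes. Near-identical class I copies share short tags, and a 36 bp tag from such a copy may align to another one. DNA methylation is read here from tag abundance, which also follows CpG density and the inherited sequence of each rat.

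For orientation, the order of genes was taken from RefSeq annotation of the newer GRCr8 assembly, whose coordinates are not those of the matrix. From the first to the last gene of the lists used here, 196 protein-coding genes lie in a row on chromosome 20. Of these, 33 were class I genes, which stand in several groups. RT1-M genes come first, followed by RT1-T, RT1-N, RT1-O and RT1-S genes and by the genes from RT1-CE16 to RT1-CE1. The class III part begins directly after RT1-CE1 with Ddx39b, an RNA helicase gene, and the cytokine genes Lta, Tnf and Ltb, and ends with the complement gene C4b (30 of 31 listed genes found). The class II genes from RT1-Da to RT1-DOa follow, with the peptide transporter genes Tap1 and Tap2 and the immunoproteasome genes Psmb8 and Psmb9 among them (15 of 16 listed class II and antigen processing genes found). RT1-A3, RT1-A2 and RT1-A1, which belong to the classical class I genes, come next. In RefSeq promoter windows of 300 bases, the median number of CpG dinucleotides was 8 in 29 class I genes, 4.5 in 14 class II and antigen processing genes and 11 in 22 class III genes, compared with 7 in all 33469 promoters.

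One sham library stood apart from the rest, that of sham rat 5. Libraries held between 13597924 and 21672940 tags. Over tested regions, the mean correlation of sham rat 5 with the other rats was 0.688, compared with 0.833 to 0.874 for the others, where regions are the points. Among the 1271 members it lacked tags in 10, whereas the other rats lacked tags in 56 to 107. The comparisons of the groups are therefore given with and without it.

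To ask how densely the complex was captured, regions and tags were set beside the rest of the genome. The interval held 282 regions per Mb, compared with 318 on the rest of chromosome 20 and 277 over all autosomes. The median length was 693 bp, compared with 645 bp on the rest of chromosome 20 and 575 bp over all autosomes. Captured regions covered 27.0% of the bases of the interval, close to the 26.4% of the rest of chromosome 20 and above the 19.7% of all autosomes. It held 486 tags per kb of captured region, compared with 436 on the rest of chromosome 20 and 353 over all autosomes. Beside 557 other autosomal windows of 4.5 Mb, the interval was near the middle in its number of regions, with 269 windows below it, but in its share of all tags it was above 496 of them. The interval took 0.330% of all tags, compared with a median of 0.150% per window. These are descriptions, since regions are not replicates.

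Regions were unevenly spread within the interval. In bins of 500 kb, the number of members was 39, 171, 41 and 76 in the first 4 bins, from 1.0 to 3.0 Mb, and between 171 and 208 in each of the 5 bins from 3.0 to 5.5 Mb. The longest stretch without a tested region ran from 2272683 to 2611240, a gap of 339 kb. Tags per kb of captured region were lowest in the bin from 1.5 to 2.0 Mb, at 324, and highest from 5.0 to 5.5 Mb, at 616. The member with the most tags per kb lay from 3528140 to 3529889, with 2371 tags per kb summed over 10 rats. Of the 5 members with the most tags per kb, 4 lay between 3.4 and 3.62 Mb. The fifth, from 4026922 to 4031037, had 2016 tags per kb. The longest member, of 7094 bp, ran from 2613787 to 2620881, shortly behind the gap and the shorter tested members that follow it. It held 684, 695, 1103, 1157 and 500 tags in sham rats 1 to 5 and 710, 762, 1094, 943 and 940 tags in TBI rats 1 to 5, with sham rat 5 lowest.

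**Figure D1:**
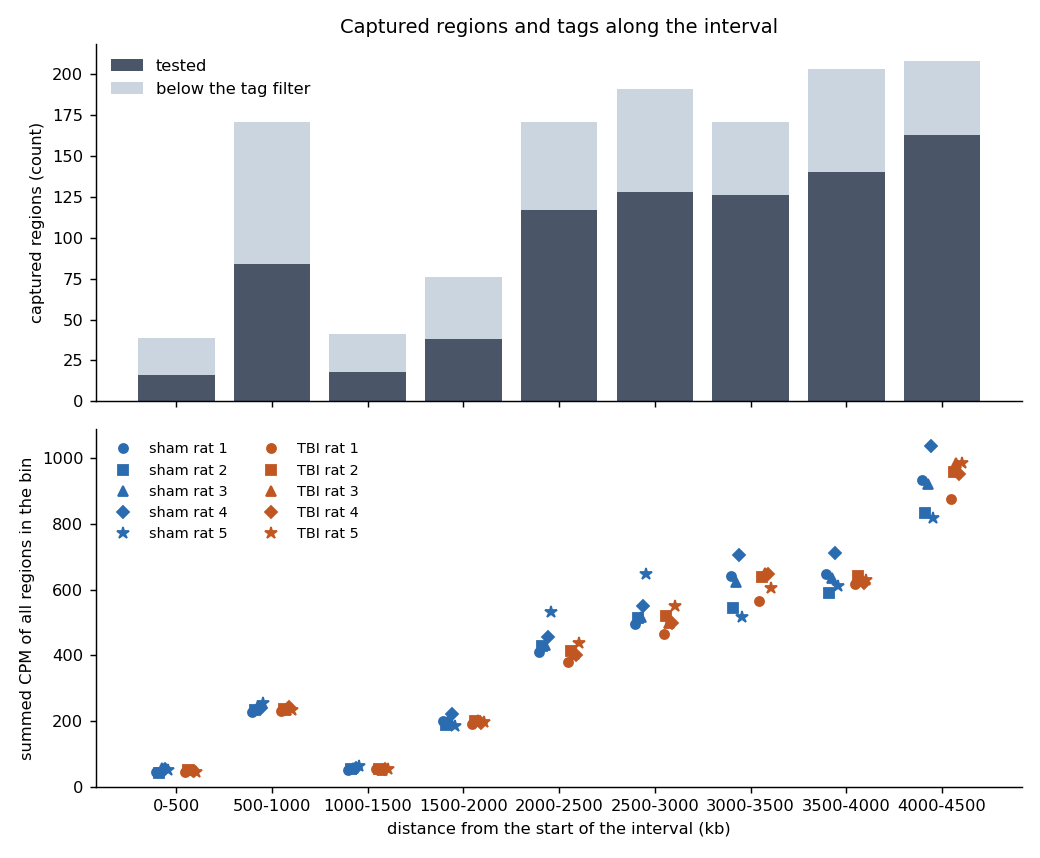
Captured regions (upper panel, count per 500 kb bin, tested regions dark and regions below the tag filter light) and summed CPM of all regions in each bin (lower panel, 1 point per rat, sham blue and TBI orange) against distance from the start of the interval in kb. The last bin held 208 regions, and sham rat 5 (blue stars) had the lowest CPM of all rats in it, at 818.

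The share of all tags that fell in the interval was compared between injured and sham-operated rats. It was 0.328%, 0.310%, 0.336%, 0.357% and 0.292% in sham rats 1 to 5 and 0.313%, 0.337%, 0.339%, 0.335% and 0.340% in TBI rats 1 to 5. The groups overlapped. The sham mean was 0.325 ± 0.0251% and the TBI mean 0.333 ± 0.0112% (SD, n = 5 each), a difference smaller than the spread between rats. When sham rat 5 was left out, the sham mean was 0.333 ± 0.0198% (SD, n = 4). As a share of the tags on chromosome 20 alone, the sham rats had 9.14 ± 0.253% in the interval and the TBI rats 9.16 ± 0.288% (SD, n = 5 each), and the 4 sham rats other than sham rat 5 had 9.11 ± 0.284%. The groups also overlapped in summed CPM in each of the 9 bins. CPM are counts per 1000000 tags of the tested regions, scaled by trimmed mean normalization. Of its 18584214 tags, sham rat 5 had 14154245 in tested regions. The sums over the bins include members below the tag filter.

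Methylation was then compared between TBI and sham rats in each member, in a fit over all regions of the genome. At an unadjusted p under 0.01, 14 of 830 tested members differed (1.69%), 3 with more tags and 11 with fewer tags in TBI rats. Over all 358249 regions tested, 0.266% were called at this threshold, with 0.098% higher and 0.168% lower. After Benjamini-Hochberg adjustment over all regions, the quasi-likelihood test of edgeR left 0 of 830 members below 0.05 and 0.0% of all regions, with an adjusted p of 1.00 for each called member. With total tags as the only scaling, 12 members were called (1.45%, with 0.265% of all regions), 4 higher and 8 lower. At an unadjusted p under 0.05 there were 58 members (6.99%), 13 higher and 45 lower, beside a background of 2.45% (0.94% higher and 1.51% lower). The median log2 fold change of all tested members was 0.00, and that of all regions tested was -0.02. Neighbouring regions are not independent of each other, and 9 of the 14 members lay within a single stretch described below.

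Without sham rat 5, 16 of 828 tested members had an unadjusted p under 0.01 (1.93%), compared with 0.792% of all 358615 regions. Of the 16, 6 were higher and 10 lower in TBI rats, whereas the background was 0.397% higher and 0.396% lower. The smallest adjusted p of edgeR among the 828 members was 0.996, so 0 members passed 0.05, beside 0.0039% of all regions. At an unadjusted p under 0.05 there were 67 members, 26 higher and 41 lower, beside a background of 4.59% (2.26% higher and 2.33% lower). In both fits 9 members were called. The count depended on other single rats as well. It was 22 without sham rat 1 (2.65%, with 0.433% of all regions called in that fit) and 25 without sham rat 4 (3.01%, with 0.727%). It was 9 without TBI rat 3 (1.08%, with 0.171%) and 8 without TBI rat 4 (0.957%, with 0.178%). The member from 4226403 to 4227948, named in the study's supplement, was among the 16 called without sham rat 5. Its log2 fold change was 0.57 there (edgeR, unadjusted p = 0.00888). With all rats it was 0.51 (edgeR, unadjusted p = 0.0214), and the groups overlapped. The study's list came from the same TBI experiment, so this overlap is not independent support. The Tesb region of that list held no called member in either fit.

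Groups that did not overlap in CPM were found in 4 of 830 tested members (0.482%), which is close to the background of 0.502% over all regions. Of the 4, 2 were higher in TBI rats (background 0.274%) and 2 were lower (background 0.228%). With sham rat 5 left out there were 12 of 828 (1.45%), near the background of 1.54%.

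**Figure D2:**
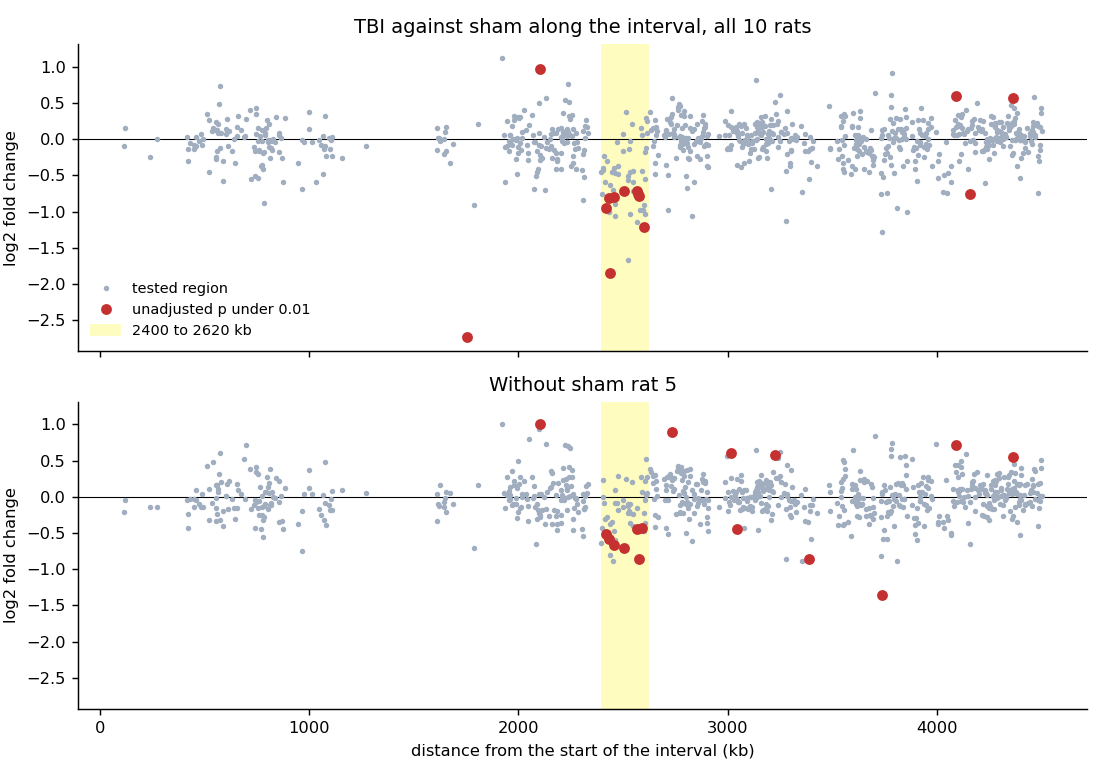
Log2 fold change (TBI minus sham) of each tested region against distance from the start of the interval in kb, with all 10 rats (upper panel, 830 regions) and without sham rat 5 (lower panel, 828 regions). Red points have an unadjusted p under 0.01, and 9 of the 14 in the upper panel and 7 of the 16 in the lower panel lie in the shaded stretch from 2400 to 2620 kb, all of them below 0.

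The stretch from 3.4 to 3.62 Mb held 9 of the 11 members called lower in TBI rats. Its borders were set after its values were seen, so its counts are descriptions. It contained 83 members, 53 of them tested. Of these 53, 45 had a log2 fold change below 0, with a median of -0.51, and 9 had an unadjusted p under 0.01, all lower in TBI rats. Outside it, 5 of 777 tested members were called (0.644%), beside 0.266% of all regions. In the fit without sham rat 5, 38 of 50 tested members were below 0, and the median log2 fold change was -0.21. Of the 50, 7 were called, all of them lower. That fit called 9 members outside the stretch and 0.792% of all regions. Under every normalization, filter and test tried, and with any 1 rat left out, the median stayed below 0, at between -0.67 and -0.20, and the number of members called lower lay between 3 and 17. The share of all regions called in these fits lay between 0.171% and 0.860%. The lowest counts were 3 without TBI rat 1 and 4 each without TBI rat 3 and without TBI rat 4, and the highest was 17 without sham rat 1, followed by 15 without sham rat 4 and 14 without TBI rat 5.

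Summed over all 83 members of this stretch, sham rats 1 to 5 had 224, 286, 271, 270 and 474 CPM, and TBI rats 1 to 5 had 189, 236, 204, 188 and 268 CPM. Sham rat 5 was far above all others, and TBI rats 2 and 5 were within the range of the other sham rats. The sham mean was 305 ± 97.3 CPM and the TBI mean 217 ± 34.6 CPM (SD, n = 5 each). Leaving out sham rat 5, the sham mean was 263 ± 26.8 CPM (SD, n = 4), and the groups still overlapped. Of the 53 tested members of the stretch, 35 were highest in sham rat 5 (66.0%), compared with 205 of 830 tested members in the interval (24.7%). Its library also had the fewest members without tags, and the part of the library in this pattern was not tested.

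The member with the smallest p in the interval lay from 3454567 to 3457575. It had 4.91, 3.32, 5.33, 5.32 and 6.98 CPM in sham rats 1 to 5 and 2.36, 4.04, 2.47, 2.75 and 3.37 CPM in TBI rats 1 to 5. The groups overlapped through sham rat 2 and TBI rats 2 and 5. Sham rats averaged 5.17 ± 1.31 CPM and TBI rats 3.0 ± 0.70 CPM (SD, n = 5 each). The log2 fold change was -0.79 ± 0.20 (SE, edgeR, unadjusted p = 0.000724), and -0.67 without sham rat 5 (edgeR, unadjusted p = 0.000756).

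From 3432290 to 3433729, sham rats 1 to 5 had 3.93, 4.32, 3.64, 4.99 and 7.66 CPM, and TBI rats 1 to 5 had 2.60, 2.60, 2.67, 2.35 and 3.73 CPM. Here 4 TBI rats were below all sham rats, and TBI rat 5 overlapped with sham rat 3. The log2 fold change was -0.81 ± 0.21 (SE, edgeR, unadjusted p = 0.000962), and -0.59 without sham rat 5 (edgeR, unadjusted p = 0.00231).

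The member from 3505283 to 3506630 did not overlap between groups, with 3.52, 4.01, 3.85, 5.43 and 4.27 CPM in sham rats 1 to 5 and 2.36, 3.03, 1.92, 2.18 and 3.42 CPM in TBI rats 1 to 5. Sham rat 1 was nearest to TBI rat 5. The log2 fold change was -0.71 both with all rats and without sham rat 5 (edgeR, unadjusted p = 0.00133 and 0.000632). This member rested on 30 to 99 tags per rat.

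In the remaining pair of the 5 members lowest by p, sham rat 5 carried a large part of the sham mean. From 3567914 to 3569072 it had 18.2 CPM, compared with 6.63 to 11.5 CPM in the other sham rats and 5.36 to 7.97 CPM in TBI rats. From 3414872 to 3419123 it had 21.2 CPM, compared with 6.36 to 9.42 CPM in the other sham rats and 3.78 to 8.75 CPM in TBI rats. Their log2 fold changes were -0.72 and -0.96 with all rats, and -0.44 and -0.51 without sham rat 5, where both had an unadjusted p under 0.01 (edgeR, 0.00531 and 0.00778). Of these 5 members, those from 3454567, 3432290 and 3505283 had an unadjusted p under 0.01 in each of 19 other fits.

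Other called members of the stretch followed sham rat 5 still more closely. From 3438675 to 3441194 it had 110 tags, compared with 13 to 24 tags in the other sham rats and 1 to 21 tags in TBI rats. From 3600111 to 3602145 it had 117 tags, compared with 18 to 44 and 11 to 38 tags. In the fit without sham rat 5 neither had an unadjusted p under 0.05 (edgeR, 0.0535 and 0.100). In contrast, from 3575418 to 3576314 sham rat 5 had the lowest value of all sham rats, 4.14 CPM, and the log2 fold change of -0.78 became -0.86 without it (edgeR, unadjusted p = 0.00589 and 0.000267).

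**Figure D3:**
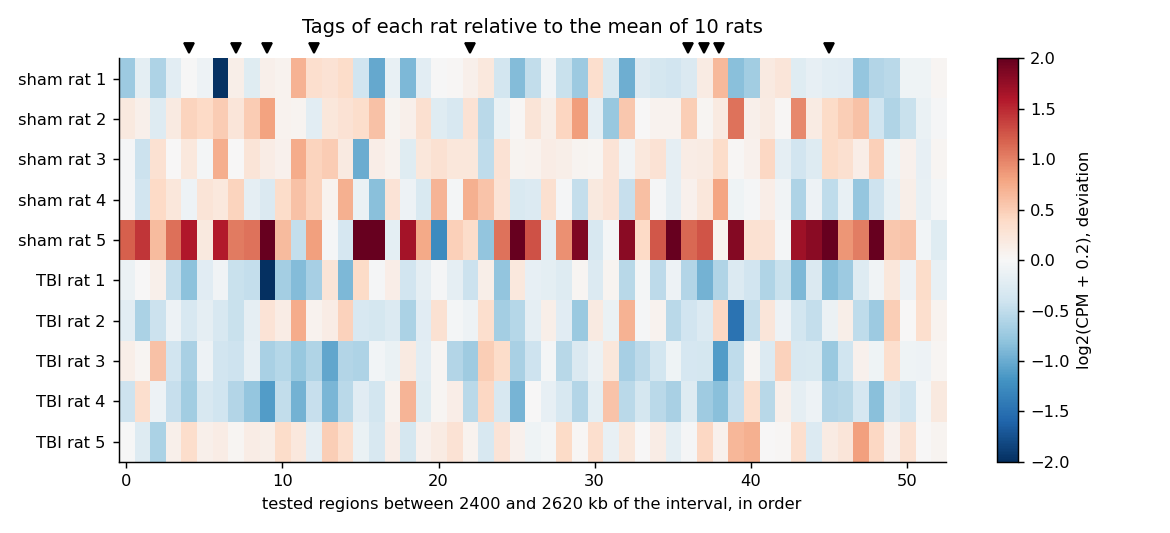
Deviation of log2(CPM + 0.2) from the mean of 10 rats for the 53 tested regions of the stretch from 2400 to 2620 kb of the interval, in order along the chromosome, with 1 row per rat; colors are cut at -2 and 2. Triangles mark the 9 regions with an unadjusted p under 0.01, and the row of sham rat 5 holds most of the strongest positive values.

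The strongly captured members of the same stretch differed from each other in this respect. From 3528140 to 3529889, sham rats 1 to 5 had 24.6, 27.7, 28.4, 31.9 and 22.0 CPM, and TBI rats had 22.4, 27.9, 25.0, 22.7 and 24.9 CPM. Sham rat 5 was the lowest of all rats there. From 3412620 to 3414291, in contrast, it had 42.4 CPM, compared with 16.8 to 22.9 CPM in the other sham rats and 14 to 21.1 CPM in TBI rats. From 4026922 to 4031037, outside the stretch, sham rat 5 was again lowest, with 25.4 CPM compared with 41.5 to 71.1 CPM in all other rats.

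At an unadjusted p under 0.01, only 3 members were higher in TBI rats with all 10 rats. The smallest p among them belonged to the member from 5360518 to 5361825. It had 2.29, 2.24, 2.11, 2.30 and 2.03 CPM in sham rats 1 to 5 and 3.78, 2.81, 3.18, 3.27 and 3.26 CPM in TBI rats 1 to 5. The groups did not overlap, and sham rats differed little among themselves. The log2 fold change was 0.57 ± 0.17 (SE, edgeR, unadjusted p = 0.00323), and 0.54 without sham rat 5 (edgeR, unadjusted p = 0.00608).

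The short member from 3103371 to 3103718 had 0.818, 0.386, 0.581, 0.713 and 0.678 CPM in sham rats and 1.18, 1.15, 1.06, 1.38 and 1.5 CPM in TBI rats. These groups did not overlap, but the values rest on 5 to 13 tags in sham rats and 15 to 29 tags in TBI rats. The log2 fold change was 0.98 ± 0.31 (SE, edgeR, unadjusted p = 0.00464), and 1.00 without sham rat 5 (edgeR, unadjusted p = 0.00411).

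From 5089292 to 5090599 sham rats averaged 2.62 ± 0.569 CPM and TBI rats 3.97 ± 0.747 CPM (SD, n = 5 each). Sham rat 5, with 3.46 CPM, overlapped with the TBI range of 3.15 to 4.92 CPM, and without it the groups did not overlap. The log2 fold change was 0.60, and 0.72 without sham rat 5 (edgeR, unadjusted p = 0.00506 and 0.000503). The next members by p, from 3241152 to 3242247 and from 2920609 to 2921318, had positive log2 fold changes, 0.51 and 1.12, and did not pass an unadjusted p of 0.01 (edgeR, 0.0107 and 0.0109), nor did they without sham rat 5, at 0.41 and 1.01 (edgeR, 0.0205 and 0.0113). In the latter, TBI rats 3, 4 and 5 had 28 to 31 tags, whereas the other 7 rats had 5 to 14.

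Variation between rats was compared as the standard deviation of log2 CPM within groups. The median over tested members was 0.363, compared with 0.350 on the rest of chromosome 20 and 0.376 over all regions tested. With 9 rats, sham rat 5 left out, the medians were 0.306, 0.308 and 0.333, respectively. The median of the members was thus between those of the rest of chromosome 20 and of all regions with 10 rats, and below both with 9. Of the tested members, 52 (6.27%) were among the most variable 5% of all regions, compared with 3.62% on the rest of chromosome 20 and 5.03% on the other autosomes. With sham rat 5 left out the shares were 5.06%, 3.55% and 5.04%, and the members were then level with the other autosomes. At a mean of 20 to 50 tags per rat, where counting error is alike, 5.98% of 301 members exceeded this level of variation compared with 2.28% of all regions, and 2.99% compared with 1.98% when sham rat 5 was left out. These shares were not tested, since regions are not replicates.

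The steadiest members lay mostly near the high-coordinate end of the interval. The smallest standard deviation, 0.0516, was found from 5418933 to 5421119, with 7.85 to 8.27 CPM in sham rats and 7.0 to 7.92 CPM in TBI rats. The member before it, from 5413465 to 5417305, had a standard deviation of 0.0758. In the long member from 4925106 to 4931740, with 27.0 to 32.7 CPM over all 10 rats, it was 0.0852. In that member and in the one from 4939418 to 4943290, sham rat 5 lay among the other rats, with 28.8 and 12.1 CPM. The fifth of the steadiest members lay apart from these, from 2960543 to 2961843, with a standard deviation of 0.0899.

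The most variable members carried no tags in some rats and many in others. In the interval, 7 members had 0 tags in at least 2 rats and at least 20 tags in at least 2 others. In the whole matrix there were 188 such regions. Among tested regions this was 4.82 per 1000 members, from 4 members, compared with 0.218 per 1000 over all regions. In 5 of the 7, both sham and TBI rats were at 0, and in 2 only TBI rats were.

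Of these 7 members, 4 lay between 4.0 and 5.0 Mb and had 0 or 1 tags in sham rat 1 and TBI rat 1. From 4407352 to 4407857 the tags in sham rats 1 to 5 were 0, 7, 19, 21 and 10, and in TBI rats 1 to 5 they were 0, 11, 12, 8 and 29. Sham rat 1 and TBI rat 1 lacked tags. From 4480135 to 4480812 the tags were 1, 5, 15, 13 and 0 in sham rats and 0, 16, 20, 15 and 27 in TBI rats. Sham rat 1, sham rat 5 and TBI rat 1 stood at 0 or 1.

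From 4483229 to 4483854 the tags were 0, 19, 22, 27 and 0 in sham rats 1 to 5 and 0, 16, 29, 22 and 35 in TBI rats 1 to 5. The same 3 rats lacked tags, although the other 7 had 16 or more. From 4921764 to 4922295, 439 kb further on, the tags were 0, 10, 21, 36 and 3 in sham rats and 0, 11, 47, 1 and 44 in TBI rats. Sham rat 1 and TBI rat 1 again had 0 tags, and TBI rat 4 had 1. This was the most variable member of the interval, with a within-group standard deviation of 1.84 on the log2 scale.

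In a pair of members between 2.5 and 3.0 Mb, only TBI rats lacked tags. From 2785693 to 2786601 the tags were 17, 21, 17, 24 and 33 in sham rats and 8, 18, 0, 0 and 39 in TBI rats. TBI rats 3 and 4 had 0 tags. From 2870421 to 2870930, 84.7 kb away, the tags were 13, 9, 14, 12 and 22 in sham rats and 0, 8, 2, 0 and 26 in TBI rats. TBI rats 1 and 4 were at 0, with TBI rat 3 at 2. The log2 CPM values of these 2 members correlated at r = 0.83 over the 10 rats, and those of the members starting at 4480135 and 4483229 at r = 0.94; the members were chosen for their absent tags. The seventh member, from 1493315 to 1493809, had 0, 10, 24, 0 and 1 tags in sham rats and 0, 22, 18, 0 and 12 in TBI rats. Rats 1 and 4 of both groups were at 0 there.

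Single rats also lacked tags where all others had many. From 4427699 to 4429119, TBI rat 5 had 0 tags and the other 9 rats had 24 to 55 tags. In the whole matrix, only 7 regions had at most 1 tag in 1 rat and at least 20 tags in each of the other 9, and this was the only one of them for TBI rat 5. In a neighbour chosen after its values were seen, from 4382212 to 4382815, TBI rat 5 had 0 tags as well, compared with 7 to 27 tags in the other rats. Nearby members below the tag filter showed the same. TBI rat 5 had 0 tags from 4420270 to 4420648 (others 5 to 15) and from 4426809 to 4427088 (4 to 12). It also had 0 from 4457374 to 4457888 (4 to 13) and from 4458875 to 4459408 (3 to 16). Between these, from 4438178 to 4438524, it had 18 tags, the most of all rats. From 2752136 to 2753149, sham rat 5 had 88 tags and the other rats 0 to 10. That member was among the 14 called (log2 fold change -2.74, edgeR, unadjusted p = 0.00970) and did not pass the tag filter when sham rat 5 was left out.

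**Figure D4:**
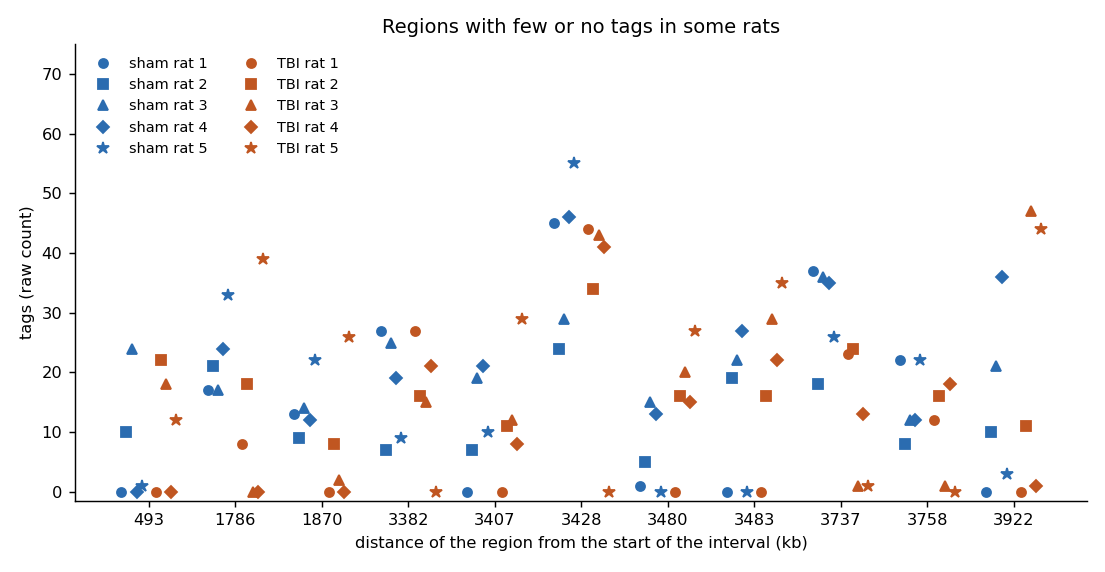
Raw tag counts of each rat (1 point per rat, sham blue and TBI orange) in 11 members with few or no tags in some rats, placed in order along the interval and labeled by their distance from its start in kb. They are the 7 members with absent tags in several rats and 4 other tested members. These 4 had 0 tags in TBI rat 5 or at most 1 tag in both TBI rat 3 and TBI rat 5. In most of the 7 members both sham and TBI rats were at 0, and in the rest only TBI rats were. The 4 others were chosen by low tags in TBI rats alone.

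Linked changes over several neighbours were found from 4.7 to 4.79 Mb, a stretch also chosen after its values were seen. From 4736772 to 4737368, TBI rats 3 and 5 had 1 tag each, whereas the other rats had 13 to 37 tags. From 4758372 to 4758753 these 2 rats had 1 and 0 tags, whereas the others had 8 to 22. From 4740463 to 4741761, a stronger member between them, they had 39 and 43 tags, and the others had at least 75. TBI rats 3 and 5 had the lowest pair of CPM values in 6 of the 25 tested members of this stretch, compared with 19 of 830 in the whole interval. Members below the tag filter are not in these counts. Both rats had 0 tags from 4742333 to 4742873 (others 5 to 26) and from 4744584 to 4744827 (3 to 12). Before the stretch both had 0 from 4669629 to 4670152 (4 to 21), and 0 and 1 from 4670810 to 4671464 (6 to 17). From 4747111 to 4747446, in contrast, both had 12 (6 to 13).

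The same rats were high in other neighbours of this stretch, where they had the highest pair of CPM values in 2 of 25 tested members, compared with 20 of 830. From 4780480 to 4781198, TBI rats 3 and 5 had 42 and 53 tags, and sham rat 1 and TBI rat 1 had 5 each. From 4782753 to 4783487, TBI rats 3 and 5 had 33 and 26 tags, and no other rat had more than 13. The members of the stretch were not alike in this. From 4754769 to 4757863 all rats had 93 to 142 tags, with TBI rats 3 and 5 lowest at 6.31 and 5.07 CPM. From 4760085 to 4762188 the same rats had 8.58 and 7.56 CPM, within the range of the others, 5.75 to 10.6 CPM. The member from 4736772 to 4737368 was called lower in TBI rats without sham rat 5 (log2 fold change -1.36, edgeR, unadjusted p = 0.00385). TBI rats 3 and 5 were lowest there. TBI rat 4, with 13 tags and 0.745 CPM, was also below all sham rats, the lowest of which had 1.39 CPM. TBI rats 1 and 2 had 23 and 24 tags.

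Likeness of whole rats was described for the pairs named above, whose shared members are among those correlated. After the mean of each region was removed, sham rat 1 and TBI rat 1 correlated at r = 0.16 over the 830 tested members, compared with -0.09 over the rest of chromosome 20 and -0.09 over the other autosomes. TBI rats 3 and 5 correlated at 0.16 over the members, compared with -0.09 and -0.09. These were the 7th and 8th highest of 45 pairs over the members, below sham rat 4 with TBI rat 2 (0.25) and TBI rats 3 and 4 (0.20), among others. Leaving out sham rat 5, they were 0.12 and 0.15 over the members, compared with -0.17 and -0.03 over the rest of chromosome 20. The most alike pair was sham rats 2 and 5 in all 3 sets, with r = 0.34 over the members, 0.31 over the rest of chromosome 20 and 0.30 over the other autosomes. The points of these correlations are regions of the same libraries, and no test was made.

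Neighbouring members moved together weakly on average. For each pair of adjacent tested members, the deviations from the group means were correlated over the 10 rats. The mean r was 0.111, compared with 0.0389 on the rest of chromosome 20 and 0.0276 on the other autosomes. Over 9 rats, sham rat 5 left out, it was 0.0961, 0.0273 and 0.0203, respectively. An r of at least 0.8 was reached by 44 pairs (5.31%), compared with 3.07% and 2.37%, and by 3.38% without sham rat 5, compared with 1.69% and 1.61%. When pairs of the stretch from 3.4 to 3.62 Mb were left out the mean r was 0.0968. The median gap between adjacent tested members was 1231 bp and fragments were 200 to 300 bp, so that only the closest neighbours may share fragments. A mean of this size in sparse counts is given as a description.

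**Figure D5:**
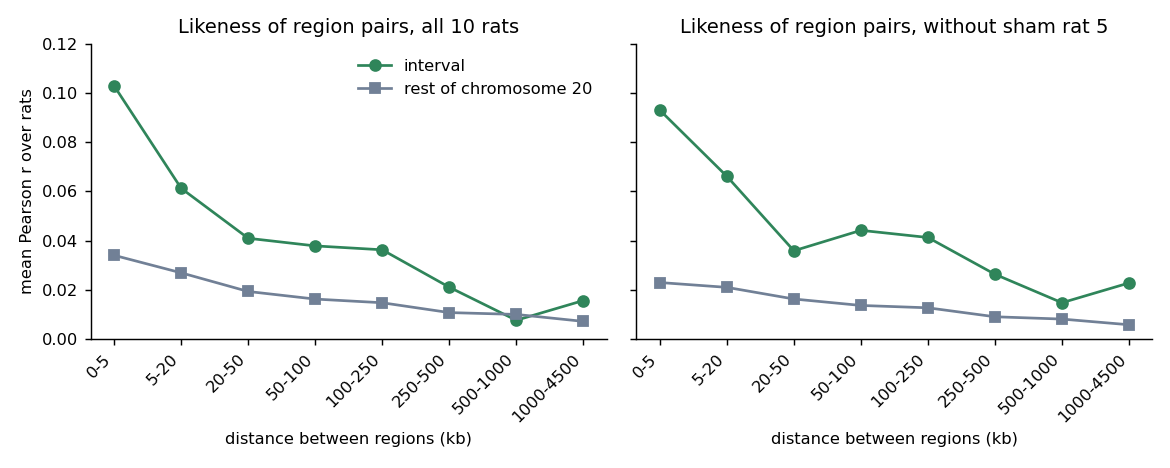
Mean Pearson r over rats of the deviations from group means, for pairs of tested regions grouped by the distance between their centers in kb, in the interval (green) and on the rest of chromosome 20 (gray), with all 10 rats (left) and without sham rat 5 (right). In the interval the mean fell from 0.103 within 5 kb to 0.0156 at 1000 to 4500 kb.

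The longest runs of consecutive members in which each neighbouring pair had an r of at least 0.8 were short. There were 7 runs of 3 or more members, and the longest held 4 members over 11.3 kb, from 2611240 to 2622557. Summed over this run, sham rats 1 to 5 had 74.0, 65.5, 75, 81.0 and 42.4 CPM, and TBI rats had 67.6, 71.8, 71.9, 70.3 and 62.0 CPM. Sham rat 5 was far below the others, and without it the lowest r in the run was 0.24. The run from 1656412 to 1676715 also rested on sham rat 5, with 6.58 CPM compared with 13.4 to 16.1 CPM in all other rats, and its r values without it were 0.03 and 0.22. The run of 3 members from 2644984 to 2652591 did not depend on it to this extent. Its r values were 0.71 and 0.85 without sham rat 5, with 22.5 CPM in sham rat 5, 28.8 CPM in sham rat 2 and 35.2 to 51.2 CPM in the other rats.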

How the data were processed

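Methyl-captured DNA of 5 sham and 5 TBI rats was used, as in the labels and the matrix; the study's methods name 4 control and 5 TBI rats for this assay, and which control differs is not given in the sources used here. The authors aligned tags to RN4 with BWA, ran MACS on every pair of libraries, joined the resulting regions with BEDTools and dropped duplicate tags, and the deposited matrix holds raw tag counts for each region in each rat. Regions therefore entered the matrix where libraries differed. Treatment of tags with several alignments, and whether positions count from 0 or 1, are not given in the sources used here, and lengths are end minus start. Rat numbers tied columns to samples (0 columns of other samples).

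The members, lists and tests were chosen with earlier results of these data known. As in the study's methods, regions were kept at or above the 50th percentile of the tag sum (117 tags). The fit over all kept regions used edgeR 4.0.16 under R 4.3.3 (trimmed mean normalization, trended dispersion, quasi-likelihood F test, Benjamini-Hochberg adjustment over all regions). The SE of a log2 fold change was derived here as its absolute value divided by the square root of the F statistic. A prior count of 2 was added for log2 CPM. By rule, the text names the 5 regions with lowest p in each direction, the 5 most variable and 5 steadiest, the 5 with most tags per kb, those with absent tags in 2 or more rats, the 3 longest linked runs and the longest region. Fold changes were compared over alternatives for the first kind. Alternatives were DESeq2 1.42.0 size factors and Wald test, total tags, loess offsets (span 0.3), other filters, edgeR's exact and likelihood ratio tests and leaving out each rat. Rats are separate animals with 1 library each, and each tag count carries counting error. Sequences of regions are not shown, since no RN4 sequence was used here.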

Additional observations from a re-analysis of the deposited data

Results flagged for a closer look

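In 54 sets of 5 values, 1 for each group in the share of tags, the 9 bins and the named regions by p or by absent tags, a single rat stood far off its group in 3, where 2.7 such sets would arise by chance. Many of these sets come from regions picked by their values, so the 2.7 is only a rough guide. TBI rat 1 had the lowest share of tags in the interval in its group, 0.313%, compared with 0.335% in the next TBI rat. From 3432290 to 3433729, TBI rat 5 had 3.73 CPM, compared with 2.67 CPM in the next TBI rat. From 3414872 to 3419123, sham rat 5 had 21.2 CPM and the second highest sham rat 9.42 CPM.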

How the results depend on the processing

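No paired analysis was possible because each rat carries a number of its own. Causes of the changes were not tested, except that more regions enter without the filter.

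The 14 members with an unadjusted p under 0.01 (3 higher, 11 lower) were 1.69% of those tested, beside 0.266% of all regions. A minimum of 1 tag in place of the filter gave 22 (5 higher, 17 lower), 1.74% beside 0.535%. The likelihood ratio test of edgeR gave 23 (5 higher, 18 lower), 2.77% beside 0.424%. The exact test gave 21 (5 higher), 2.53% beside 0.371%. Loess offsets gave 21 (17 lower), 2.53% beside 0.352%, and without sham rat 5 also 21 (11 higher), 2.54% beside 0.860%. Thresholds of 0.05 and 0.001 gave 58 (6.99% beside 2.45%) and 2 (0.241% beside 0.0106%). Without 1 rat each, the share of all regions called lay between 0.171% and 0.792%. There were then 8 to 25 members, 1 to 6 higher and 5 to 21 lower. Higher were 1 without sham rat 3 or TBI rat 5, 6 without sham rat 5 and 5 without TBI rat 1. Lower were 5 without TBI rat 1 or TBI rat 4 and 6 without TBI rat 3. Without sham rat 1 or TBI rat 5, 20 were lower, and without sham rat 4, 21 were. No member had an adjusted p under 0.05 in any of the 14 fits examined for it.

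Of 188 values of the 10 regions named by p, 0 changed direction, 17 lost an unadjusted p under 0.01 and 14 gained it. Regions per Mb were 184 past the tag filter and 139 with at least 10 tags in every sample. When 1 rat was left out, the median standard deviation within groups ranged from 0.306, without sham rat 5, to 0.373, without sham rat 3. With a prior count of 0.5 it was 0.381. The mean correlation of adjacent members was 0.120 with group means kept, 0.126 at gaps of 5 kb or less, 0.100 as Spearman rho, 0.0968 without the stretch from 3.4 to 3.62 Mb, a setting chosen after seeing the data, and 0.0961 to 0.121 when 1 rat was left out. At a median of 37.1 tags per tested member and rat, changes in single weak regions are limited by counting error.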
